A study of Homo sapiens with 4 samples.

Results

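The genes of the mitochondrial ribosome were followed in 2 diffuse large B-cell lymphoma (DLBCL) cell lines treated with JQ1. Members were the genes whose symbol is MRPL or MRPS with a number, and for some MRPS genes a final A, B or C, and whose mean value was above 0. This rule took 76 genes of the 14944 with a value in the deposited gene table, 49 of them for proteins of the large ribosomal subunit, 26 for proteins of the small subunit, and MRPS36. SU-DHL-5 and Toledo are established B lymphocyte lines grown from DLBCL, and JQ1 is a BET inhibitor, a compound that keeps the BET bromodomain proteins off acetylated histones. Of either line there was 1 sample with JQ1 at 1 µM and 1 with the solvent DMSO, both taken after 6 h by the labels. The study's own text gives another time. Poly(A) RNA of the 4 samples was sequenced from stranded libraries, and each sample has 2 libraries in the table. Neither the labels nor the study's text says that these came from separate cultures, so they were averaged (n = 1 per condition). There is no replicate check of any difference between DMSO and JQ1, and no test was made.

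Mitochondria hold their own ribosome, which translates the few proteins encoded by mitochondrial DNA, all of them subunits of the oxidative phosphorylation complexes. Its ribosomal RNA is made from mitochondrial DNA, whereas all of its proteins are encoded in the nucleus, made on cytosolic ribosomes and imported. Many have a counterpart in the bacterial ribosome, and others were added in the mitochondrial lineage. Growing cells, lymphomas included, use them to maintain respiration, and MYC is known to act on many genes of mitochondrial biogenesis.

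Values are RPKM, reads corrected for gene length and for sequencing depth, so levels can be compared between genes, whereas a change of total RNA per cell cannot be seen. A log2 ratio is log2((JQ1 + 0.1)/(DMSO + 0.1)) of the mean RPKM of the 2 libraries. A member is called lower where its ratio was below 0.8 and higher where the ratio of DMSO to JQ1 was below 0.8, and the same rule was applied to the 9521 genes with a mean of at least 1 RPKM as the background. All 76 members were among these genes. The libraries held 14617583 to 17679831 mapped reads, and the smallest number of reads of a member in any library was 197. Intervals are 95% exact binomial intervals from the reads and cover counting error only. Marker genes of B cells were present in every library, with a summed level of 606 to 969 RPKM, whereas summed markers of T cells reached at most 1.09 RPKM and those of myeloid cells 1.29 RPKM. HEXIM1, which is widely used to follow BET inhibition, gave 4.35 and 3.89 RPKM with DMSO and 22.4 and 22.9 with JQ1 in SU-DHL-5 cells, and 4.04 and 3.94 RPKM with DMSO and 23.9 and 24.5 with JQ1 in Toledo. MYC gave 44.1 and 40.9 RPKM with DMSO and 35.2 and 34.4 with JQ1 in SU-DHL-5 cells, for a log2 ratio of −0.29. In Toledo it gave 40.4 and 44.4 RPKM with DMSO and 44.6 and 42.1 with JQ1, a log2 ratio of 0.03 with libraries that overlapped.

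The starts of these genes shared a short sequence more often than those of other genes. The motif AAGATGG, the core that the transcription factor YY1 binds, was searched on the strand of the gene in the 50 bases after the first listed transcription start in RefSeq (GRCh38.p14). It was found in 16 of the 67 members with an entry, or 23.9%, against 4.60% of 7412 genes of at least 1 RPKM and 1.79% of all 27305 starts. The window was chosen after a first search had been seen. In 12 of the 16 the ATG inside the motif is an annotated start codon, so that the motif lies where transcription and translation both begin. Of these 16, the 8 that the rule for named members picked are shown, with 10 bases on each side and the motif in capitals, 5′ to 3′ on the strand of the gene. The others of the 21 members picked by that rule that have an entry do not carry it in this window.
MRPS24 (chr7:43869482-43869508, minus strand): cgcttggcccAAGATGGcggcctccgt
MRPL11 (chr11:66438808-66438834, minus strand): cctctggcccAAGATGGtggcgcccag
MRPS18B (chr6:30617853-30617879, plus strand): ggcgtacgtcAAGATGGcggcgtctgt
MRPL42 (chr12:93467512-93467538, plus strand): ggattgaaacAAGATGGcgggttcgtg
MRPL50 (chr9:101398579-101398605, minus strand): gatctcatcgAAGATGGcggcgcgatc
MRPL51 (chr12:6493225-6493251, minus strand): ggtaaggcccAAGATGGctgtcttcgc
MRPS18A (chr6:43687766-43687792, minus strand): taggtttttgAAGATGGcggccctcaa
MRPS30 (chr5:44808950-44808976, plus strand): atcgcgggcaAAGATGGcggcggccag

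The same letters stood at the start of members that moved in opposite directions. MRPL11 and MRPS24 were lower with JQ1 in both lines, whereas MRPL42 and MRPL50 had positive log2 ratios in SU-DHL-5 cells and negative ones in Toledo. The median log2 ratio of the 16 members with the motif was −0.20 in SU-DHL-5 cells and −0.38 in Toledo, beside −0.15 and −0.31 for the 51 members without it.

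3 further motifs and the YY1 motif were searched on both strands from 250 bases before to 50 bases after the start. CACGTG, the E-box that MYC binds, was found in 6 of 67 members, or 8.96%, against 10.7% of the genes of at least 1 RPKM and 7.43% of all starts. CCGGAAG, a core of ETS factor sites, was found in 28 members, or 41.8%, against 22.6% and 10.7%. GCATGCG, a core that NRF1 binds, was found in 7 members, or 10.4%, against 7.43% and 4.13%. AAGATGG was found in 23 members, or 34.3%, against 8.78% and 6.06%. The E-box was thus about as frequent at these starts as at others, and the ETS and YY1 letters were more frequent. The 28 members with CCGGAAG had median log2 ratios of −0.15 in SU-DHL-5 cells and −0.26 in Toledo, and the members without it −0.20 and −0.39. A match describes the letters only, and binding was not measured.

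The 100 bases before the first start listed in RefSeq are shown for members that hold CCGGAAG there on either strand. These were 3 of the 11 with an entry among the 14 most decreased or increased genes. By the deposited gene coordinates, all 3 matches lie inside the gene, and for MRPL53 the whole stretch does. The bases are thus upstream of the RefSeq start only. The 3 members were picked for holding the match, shown in capitals, and the others hold none. MRPL3 was called lower in both lines, and MRPL40 and MRPL53 were called higher in SU-DHL-5.
MRPL3 (chr3:131502972-131503071, minus strand): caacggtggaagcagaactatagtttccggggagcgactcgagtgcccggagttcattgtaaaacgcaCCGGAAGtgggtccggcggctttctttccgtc
MRPL40 (chr22:19432445-19432544, plus strand): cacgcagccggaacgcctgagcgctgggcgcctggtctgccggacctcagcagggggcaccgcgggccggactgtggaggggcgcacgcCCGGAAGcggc
MRPL53 (chr2:74472681-74472780, minus strand): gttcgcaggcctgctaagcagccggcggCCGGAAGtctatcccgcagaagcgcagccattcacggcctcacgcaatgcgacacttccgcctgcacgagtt

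With JQ1, most members had lower values, by modest amounts. In SU-DHL-5 the median log2 ratio of the 76 members was −0.15, with quartiles of −0.34 and 0.01, whereas the median of all genes of at least 1 RPKM was 0.01. In Toledo the members' median was −0.31, with quartiles of −0.50 and −0.14, and that of all genes −0.06. Summed over the members, the level went from 5889 RPKM with DMSO to 4999 RPKM with JQ1 in SU-DHL-5 cells, a ratio of 0.849. In Toledo it went from 4794 to 3677 RPKM, a ratio of 0.767. The share of all mapped reads that fell on members was 0.751% and 0.747% in the DMSO libraries of SU-DHL-5 and 0.635% and 0.649% in its JQ1 libraries. In Toledo these shares were 0.630% and 0.590% with DMSO and 0.469% and 0.466% with JQ1, so in each line both JQ1 libraries were below both DMSO libraries.

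In SU-DHL-5, 24 of 76 members (31.6%) were called lower, where 22.2% of the background genes were, and 7 members (9.21%) were called higher, where 22.3% were. In Toledo, 36 members (47.4%) were called lower against a background of 29.2%, and 1 member (1.32%) higher against 17%. In both lines together, 20 members (26.3%) were lower against 16.7%, and no member was higher against 11.5%. The members were thus rare among the genes that increased, more than they were frequent among those that decreased. Few of the decreases were large. A ratio below 0.5 was seen in 1 member in SU-DHL-5 cells, MRPL23, where 5.44% of genes had one, and in 4 members in Toledo, MRPL3, MRPL11, MRPL15 and MRPL23, where 6.94% had one. No member had a ratio above 2, which 1.74% of genes had in SU-DHL-5 cells and 1.61% in Toledo.

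The counts were also taken with each gene set against genes of similar length. Members are short, with a median of 1349 bases beside 3309 bases for the background genes. Across the 9521 genes, Spearman's rho between length and the log2 ratio of the second to the first library was 0.61 for the DMSO sample of Toledo, −0.26 for its JQ1 sample, and −0.09 and −0.06 for the DMSO and JQ1 samples of SU-DHL-5. Among the 76 members, rho between length and the ratio of JQ1 to DMSO was −0.06 in SU-DHL-5 cells and −0.01 in Toledo. Set against genes of similar length, the median of the members was −0.10 in SU-DHL-5 cells and −0.23 in Toledo. Only 14 members (18.4%) were then lower in SU-DHL-5 cells, against 21.9% of genes, and 27 (35.5%) in Toledo, against 28.6%. Thus the share of lower members in SU-DHL-5 was not above the background in that comparison. Members called higher remained few, at 5 in SU-DHL-5 against 21.2% of genes and 4 in Toledo against 16.8%. MRPL40 was then higher in both lines. With the second library of each sample alone, 36.8% of members were lower in Toledo against 34.1% of genes, and 25% in SU-DHL-5 against 21.0%. With the first library alone these shares were 53.9% against 26.3% and 35.5% against 23.8%. The part of length and of single libraries in the result was not tested further.

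The direction was also read library by library. Both JQ1 libraries were below both DMSO libraries for 46 members in SU-DHL-5 cells, where this held for 37.3% of genes, and for 63 members in Toledo, against 42.9%. It held in both lines for 46 members against 29.1%. The counting interval of the ratio lay below 0 for 45 members in SU-DHL-5, against 35.2% of genes, and for 62 in Toledo, against 43.9%. It lay above 0 for 16 in SU-DHL-5, against 39.1%, and for 9 in Toledo, against 32.3%. Both JQ1 libraries were above both DMSO libraries for 17 members in SU-DHL-5 against 41.1%, and for 8 in Toledo against 29.3%. The same 8 members were above in both lines, against 22.7%, namely MRPL10, MRPL40, MRPL41, MRPL53, MRPS6, MRPS14, MRPS25 and MRPS36. Across the 76 members, Pearson's r between the log2 ratios of both lines was 0.81 and Spearman's rho 0.76, beside 0.71 and 0.72 across all background genes. Genes are not independent replicates, and the points share their libraries.

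**Figure D1:**
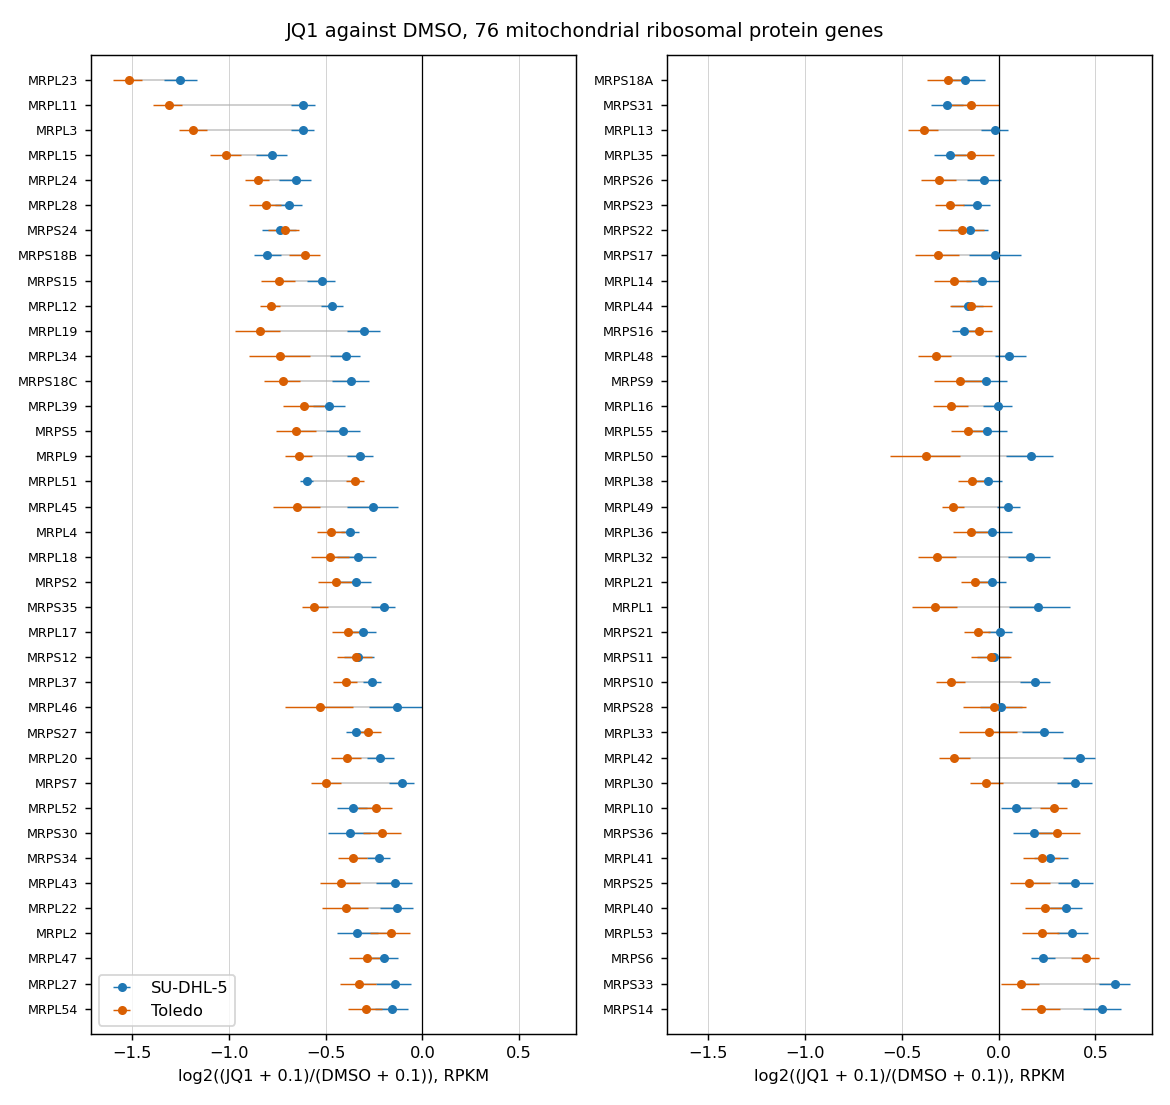
The log2 ratio of JQ1 to DMSO is plotted for each of the 76 members in SU-DHL-5 (blue) and Toledo (orange), in order of the mean of both lines, with bars for the 95% counting interval. Most points lie left of 0, MRPL23 lies farthest left at −1.25 and −1.52, and 62 of the 76 members have the lower value in Toledo.

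**Figure D2:**
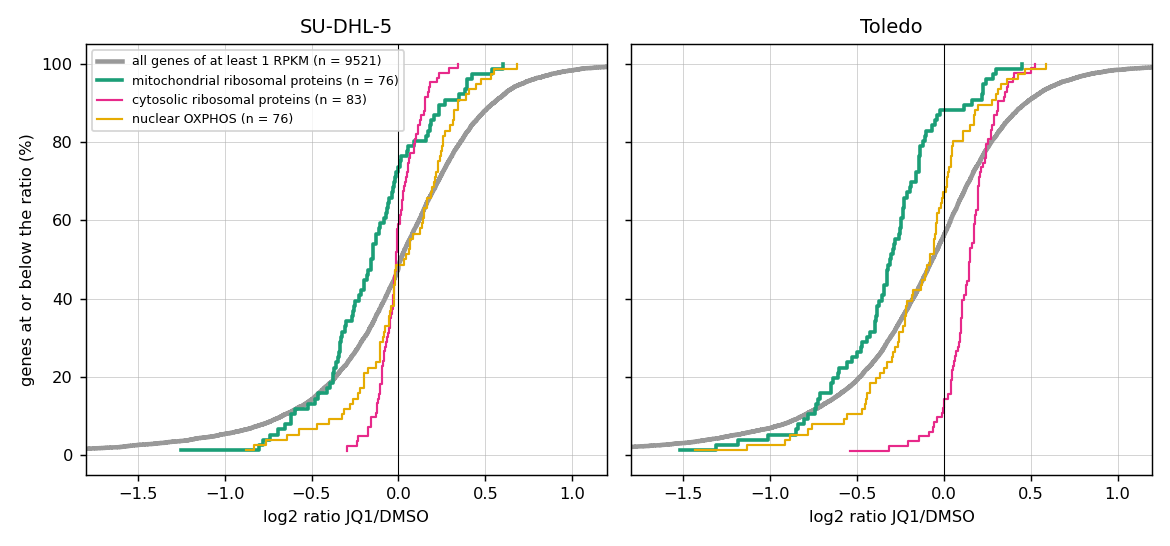
Each curve gives the percentage of genes (vertical axis) at or below a log2 ratio of JQ1 to DMSO (horizontal axis) for the members, the cytosolic ribosomal proteins, the nuclear genes of oxidative phosphorylation and all genes of at least 1 RPKM. The curve of the members lies left of the others around the middle, with medians of −0.15 in SU-DHL-5 cells and −0.31 in Toledo, and is steeper than that of all genes.

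The exit tunnel of the large subunit, through which the new protein leaves the ribosome, is lined by MRPL23 and MRPL24 among other members. MRPL23 (chr11:1947272-1956609, GRCh38) had the most negative ratio of all members in both lines. In SU-DHL-5 it gave 139.7 and 135 RPKM with DMSO and 59.8 and 55.5 with JQ1, and in Toledo 202 and 167 RPKM with DMSO and 62.2 and 66.8 with JQ1. In each line the JQ1 libraries lay far below the DMSO libraries. The log2 ratio was −1.25 (95% interval −1.33 to −1.16) in SU-DHL-5 cells and −1.52 (95% interval −1.60 to −1.45) in Toledo, that is 0.42 and 0.35 of the level with DMSO. MRPL24 (chr1:156737302-156741131), one of the 4 members with the highest mean level, gave 109 and 100.4 RPKM with DMSO and 64.7 and 68.1 with JQ1 in SU-DHL-5. In Toledo it gave 204 and 182 RPKM with DMSO and 109.8 and 104 with JQ1. Its log2 ratios were −0.65 and −0.85, with no overlap of the libraries in either line.

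The other 4 members placed at the tunnel were MRPL17, MRPL22, MRPL45 and MRPL47. For all 6 the JQ1 libraries lay below the DMSO libraries in both lines, as they did for 46 of the 76 members and 29.1% of all genes. The median log2 ratio of the 6 was −0.28 in SU-DHL-5 cells and −0.52 in Toledo. MRPL45, which helps to attach the ribosome to the inner membrane, gave 24 and 26 RPKM with DMSO and 15.5 and 16.3 with JQ1 in Toledo, a log2 ratio of −0.65, and −0.26 in SU-DHL-5. The smallest change of the 6 in SU-DHL-5 was that of MRPL22, at −0.13.

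MRPL3, MRPL15 and MRPL28 are further large subunit proteins with bacterial counterparts. MRPL15 (chr8:54135221-54148514) gave 60.9 and 59 RPKM with DMSO and 34.2 and 35.7 with JQ1 in SU-DHL-5 cells, and 66.5 and 64.2 RPKM with DMSO and 32.1 and 32.5 with JQ1 in Toledo. The values were alike in both lines before treatment and clearly lower with JQ1 in each, with JQ1 to DMSO ratios of 0.583 and 0.495. MRPL28 (chr16:367384-370584) gave 112 and 116 RPKM with DMSO and 71.5 and 69.8 with JQ1 in SU-DHL-5 cells, and 86.7 and 78.2 RPKM with DMSO and 46.5 and 47.8 with JQ1 in Toledo, with log2 ratios of −0.69 and −0.81. MRPL3 (chr3:131462201-131503016), whose bacterial counterpart reaches toward the peptidyl transferase centre, gave 103 and 105 RPKM with DMSO and 66.9 and 68.7 with JQ1 in SU-DHL-5. In Toledo it gave 80.4 and 91.1 RPKM with DMSO and 38.8 and 36.6 with JQ1. The JQ1 libraries were below the DMSO libraries in both lines, and the log2 ratio was −0.62 (95% interval −0.68 to −0.56) in SU-DHL-5 cells and −1.18 (95% interval −1.26 to −1.11) in Toledo.

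The stalk of the large subunit, which recruits translation factors, held members that moved both ways. MRPL11 (chr11:66435079-66438852), at the base of the stalk, gave 94.8 and 90.6 RPKM with DMSO and 59.5 and 61.4 with JQ1 in SU-DHL-5. In Toledo it gave 91 and 77.3 RPKM with DMSO and 32.9 and 35 with JQ1. The log2 ratio was −0.62 (95% interval −0.68 to −0.55) and −1.31 (95% interval −1.39 to −1.24), and the gap of −0.69 between the lines was the largest of any member. MRPL12 (chr17:81703370-81707526), the factor-binding stalk protein that also binds the mitochondrial RNA polymerase, had the second highest mean level of all members. It gave 204 and 187 RPKM with DMSO and 136 and 148 with JQ1 in SU-DHL-5 cells, and 282 and 240.1 RPKM with DMSO and 147 and 157 with JQ1 in Toledo, with log2 ratios of −0.47 and −0.78. MRPL10, which anchors MRPL12 to the stalk, had JQ1 libraries above its DMSO libraries, at 48.4 and 45.4 RPKM with DMSO and 56.9 and 57.4 with JQ1 in Toledo and log2 ratios of 0.09 and 0.28. MRPL53, beside the stalk, went the same way as MRPL10.

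MRPL53 (chr2:74471958-74472815) gave 103 and 110.1 RPKM with DMSO and 140.0 and 137 with JQ1 in SU-DHL-5 cells, and 82 and 69.2 RPKM with DMSO and 87.5 and 89.1 with JQ1 in Toledo. Its log2 ratio was 0.38 in SU-DHL-5 cells, past the rule for higher, and 0.22 in Toledo, where it did not pass. With the second libraries alone these were 0.32 and 0.36, which passed in Toledo and not in SU-DHL-5. With the first libraries alone they were 0.44 and 0.09, which passed in SU-DHL-5 and not in Toledo. MRPL40 (chr22:19432513-19436075), a mitochondrial addition at the central protuberance, gave 63.1 and 66.7 RPKM with DMSO and 81.7 and 83.7 with JQ1 in SU-DHL-5 cells, and 48.6 and 42.3 RPKM with DMSO and 53.3 and 54.1 with JQ1 in Toledo. Its log2 ratios were 0.35 and 0.24, again past the rule in SU-DHL-5 cells and not in Toledo. Centred on length they were 0.44 and 0.37, and both passed. In Toledo the ratio was 0.13 with the first libraries alone and 0.35, which passed, with the second. MRPL41 (chr9:137551857-137552555), another mitochondrial addition, gave 107 and 92.4 RPKM with DMSO and 116 and 124 with JQ1 in SU-DHL-5 cells, and 83 and 75.7 RPKM with DMSO and 87.7 and 97.7 with JQ1 in Toledo. Its log2 ratios of 0.27 and 0.22 did not pass the rule in either line, although the JQ1 libraries were above the DMSO libraries in both. With the second libraries alone the ratios were 0.42 and 0.37 and passed in both lines, and with the first they were 0.12 and 0.08.

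**Figure D3:**
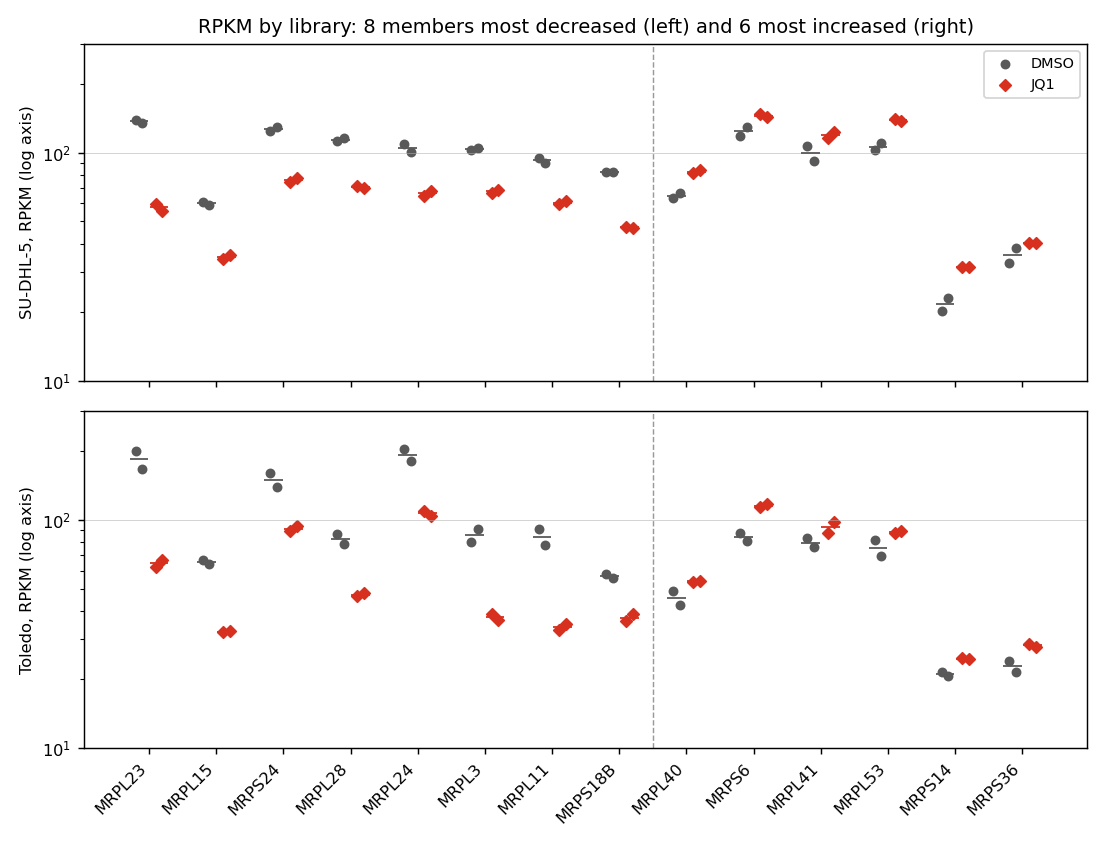
RPKM on a log axis is plotted for each library of the 8 members most decreased and the 6 most increased in both lines, with DMSO as grey circles, JQ1 as red diamonds and a line at the mean of the 2 libraries. For the 8 members on the left the JQ1 libraries lie below the DMSO libraries in both lines, and for the 6 on the right they lie above, by smaller distances.

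The members with the highest and lowest levels also differed in their response. MRPL51 (chr12:6492150-6493305), a mitochondrial addition to the large subunit, had the highest mean level. It gave 887 and 900.2 RPKM with DMSO and 587 and 594 with JQ1 in SU-DHL-5 cells, and 392 and 356 RPKM with DMSO and 301 and 287 with JQ1 in Toledo. Both lines were lower with JQ1, by log2 ratios of −0.60 and −0.35, of which that of Toledo no longer passed with the second libraries alone (−0.31) or when scaled by the median ratio of all genes (−0.28). The level before treatment was 0.418 in Toledo relative to SU-DHL-5. MRPL19 (chr2:75613881-75671918) had the lowest mean level, with 9.61 and 9.94 RPKM with DMSO and 7.89 and 7.95 with JQ1 in SU-DHL-5 cells, and 5.99 and 6.8 RPKM with DMSO and 3.42 and 3.65 with JQ1 in Toledo. Its log2 ratios were −0.30 and −0.84. MRPS25 and MRPL30, the next lowest, are described with the members that were higher or went opposite ways.

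Of the small subunit, 8 of 26 members were called lower in SU-DHL-5 cells and 10 in Toledo, with median log2 ratios of −0.13 and −0.27. These are 30.8% and 38.5% of its members, beside 22.2% and 29.2% of all genes. Of the large subunit, 16 of 49 (32.7%) were lower in SU-DHL-5 cells and 26 (53.1%) in Toledo, with medians of −0.16 and −0.33. Centred on length, the small subunit had 4 and 8 of 26 lower and the large subunit 10 and 19 of 49, beside 21.9% and 28.6% of all genes. MRPS24 (chr7:43866558-43869546), which has a bacterial counterpart, had similar ratios in the 2 lines. It gave 124 and 129.5 RPKM with DMSO and 74.5 and 77.7 with JQ1 in SU-DHL-5 cells, and 161 and 139.9 RPKM with DMSO and 89.1 and 94.4 with JQ1 in Toledo, with log2 ratios of −0.74 and −0.71. MRPS15, with a bacterial counterpart that binds ribosomal RNA early in assembly, gave 123 and 124 RPKM with DMSO and 85.4 and 87 with JQ1 in SU-DHL-5 cells, and 92.7 and 84 RPKM with DMSO and 53.7 and 51.9 with JQ1 in Toledo. Its log2 ratios were −0.52 and −0.74. MRPS12 (chr19:38930708-38933020), the counterpart of the decoding centre protein in bacteria, gave 74.1 and 71.1 RPKM with DMSO and 58.7 and 56.6 with JQ1 in SU-DHL-5 cells, and 58.9 and 48.9 RPKM with DMSO and 40.9 and 44 with JQ1 in Toledo. Its ratios of 0.795 and 0.788 were just below 0.8 in each line. Centred on length, neither line passed, with log2 ratios of −0.27 and −0.26. In Toledo the log2 ratio was −0.52 with the first libraries alone and −0.15 with the second, and −0.28 when scaled by the median ratio. MRPS15 was added to the named members after its values were seen.

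The 3 paralogues of bacterial S18 had ratios of different sizes, all below DMSO. MRPS18B (chr6:30617498-30626397) gave 82.1 and 82.4 RPKM with DMSO and 47.5 and 46.8 with JQ1 in SU-DHL-5 cells, and 57.8 and 55.8 RPKM with DMSO and 36 and 38.5 with JQ1 in Toledo, with log2 ratios of −0.80 and −0.61. MRPS18C, named after its values were seen, had log2 ratios of −0.37 and −0.72. MRPS18A (chr6:43671197-43687812), whose protein sits in the large subunit in spite of its name, gave 38.8 and 35.1 RPKM with DMSO and 32.3 and 33.3 with JQ1 in SU-DHL-5 cells, and 36 and 31.6 RPKM with DMSO and 28.3 and 28.2 with JQ1 in Toledo. Its log2 ratios of −0.17 and −0.26 did not pass the rule. MRPS30 (chr5:44808925-44815514), also a large subunit protein, gave 29.7 and 30.5 RPKM with DMSO and 22.4 and 24 with JQ1 in SU-DHL-5 cells, a log2 ratio of −0.37 that passed, though not when centred on length (−0.29). Toledo, with 30.2 and 33.8 RPKM with DMSO and 26.9 and 28.3 with JQ1, had −0.21.

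MRPS6 (chr21:34073523-34143034), the counterpart of a bacterial protein that binds beside S18, was the 1 member called higher in Toledo. It gave 118 and 129.9 RPKM with DMSO and 148 and 144 with JQ1 in SU-DHL-5 cells, and 88.1 and 81 RPKM with DMSO and 114 and 117 with JQ1 in Toledo, with log2 ratios of 0.23 and 0.45 (95% interval 0.38 to 0.52). MRPS14 (chr1:175012958-175023455) gave 20.3 and 23.1 RPKM with DMSO and 31.5 and 31.4 with JQ1 in SU-DHL-5 cells, and 21.6 and 20.7 RPKM with DMSO and 24.7 and 24.5 with JQ1 in Toledo, with log2 ratios of 0.54 and 0.22. MRPS25 (chr3:15048512-15065334) gave 12.3 and 11.7 RPKM with DMSO and 16 and 15.7 with JQ1 in SU-DHL-5 cells, and 9.19 and 9.56 RPKM with DMSO and 10.7 and 10.3 with JQ1 in Toledo, with log2 ratios of 0.39 and 0.16, the first of which was 0.30 and no longer passed when centred on length. These 3 small subunit genes were above DMSO in both JQ1 libraries of each line. MRPS33, named after its values were seen, had the highest log2 ratio of all members in SU-DHL-5 cells, 0.60, whereas its libraries overlapped in Toledo.

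MRPS36 (chr5:69217746-69230158) carries a mitochondrial ribosome symbol, but its protein is now known as a part of the 2-oxoglutarate dehydrogenase complex of the citric acid cycle. It gave 32.8 and 38.1 RPKM with DMSO and 40.4 and 40.0 with JQ1 in SU-DHL-5 cells, and 24.1 and 21.5 RPKM with DMSO and 28.7 and 27.7 with JQ1 in Toledo. The JQ1 libraries were above the DMSO libraries in both lines, with log2 ratios of 0.18 and 0.30, neither of which passed the rule. The Toledo ratio did pass when centred on length (0.38), when scaled by the median ratio (0.37) and with the second libraries alone (0.36). With the first libraries it was 0.25. In SU-DHL-5 cells the ratio was 0.30 with the first libraries and 0.07 with the second.

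Members with a bacterial counterpart and mitochondrial additions were counted apart. Of the paralogues of bacterial S18, MRPS18C was counted as having a counterpart. MRPS18A and MRPS18B were counted with the additions, and MRPS18B was lower in both lines. Of the 46 with a counterpart, 18 (39.1%) were lower in SU-DHL-5 cells, 25 (54.3%) in Toledo and 17 in both lines, with median log2 ratios of −0.19 and −0.34. Of the 29 additions, 6 (20.7%) were lower in SU-DHL-5 cells, 11 (37.9%) in Toledo and 3 in both, with medians of −0.15 and −0.26. The share of all genes was 22.2% in SU-DHL-5 cells, 29.2% in Toledo and 16.7% in both, so the additions were near it in SU-DHL-5. Centred on length, 11 of the 46 members with a counterpart were lower in SU-DHL-5 cells, 19 in Toledo and 11 in both. Of the 29 additions, 3, 8 and 3 were. The share of all genes after centring was 21.9% in SU-DHL-5 cells and 28.6% in Toledo, and that for both lines is not given here. Among the 7 members called higher in SU-DHL-5 cells, 5 were additions and 2 had a counterpart. These are 17.2% of the additions and 4.35% of those with a counterpart, both below the 22.3% of all genes. The difference between these groups of members was not tested.

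The lines differed before treatment. With DMSO alone, 36 members were below 0.8 of the SU-DHL-5 level in Toledo, where 34% of genes were, and for 10 the SU-DHL-5 level was below 0.8 of that in Toledo, where it was for 34.9%. The members' median log2 ratio of Toledo to SU-DHL-5 was −0.30, against −0.01 for all genes, and 54 of 76 were lower in Toledo. The JQ1 sample of Toledo had the lowest summed level of the 4 samples. The widest gap was that of MRPL34, a large subunit protein, which gave 95.3 and 102 RPKM in SU-DHL-5 cells and 28.3 and 27.2 RPKM in Toledo with DMSO, a log2 ratio of −1.83. MRPL1, the counterpart of the mobile stalk protein of bacteria, was the member most in excess in Toledo, at 1.08. Both were named after their values were seen.

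The log2 ratio with JQ1 was more negative in Toledo for 62 of 76 members, against 63.2% of all genes. The median difference of Toledo minus SU-DHL-5 was −0.14 for the members and −0.10 for all genes, so part of this gap was common to genes at large. MRPL42 (chr12:93467490-93503772), a mitochondrial addition to the large subunit, moved in opposite directions. It gave 18.6 and 22 RPKM with DMSO and 26.9 and 27.5 with JQ1 in SU-DHL-5 cells, and 26.6 and 27 RPKM with DMSO and 23.7 and 22 with JQ1 in Toledo. The log2 ratio was 0.42 (95% interval 0.33 to 0.50) in SU-DHL-5 cells and −0.23 (95% interval −0.31 to −0.15) in Toledo, and the first was 0.32 and did not pass with the second libraries alone. MRPL50 (chr9:101389967-101398637), another addition, gave 31.1 and 33.4 RPKM with DMSO and 34.5 and 38 with JQ1 in SU-DHL-5 cells, and 17.7 and 17.2 RPKM with DMSO and 14.3 and 12.6 with JQ1 in Toledo. Its log2 ratios were 0.17 and −0.38, and that of Toledo did not pass with the first libraries alone (−0.31), when scaled by the median ratio (−0.31) or when centred on length (−0.24). In each of these genes both JQ1 libraries were above DMSO in SU-DHL-5 cells and below it in Toledo, as they were for 7 members in all, where 4.79% of genes behaved so. MRPL30 (chr2:99181079-99199557), with a bacterial counterpart, gave 12.2 and 12.6 RPKM with DMSO and 15.9 and 16.7 with JQ1 in SU-DHL-5 cells, and 14.7 and 15.9 RPKM with DMSO and 14.6 and 14.6 with JQ1 in Toledo, and its Toledo interval of −0.15 to 0.02 included 0. Scaled by the median ratio, the Toledo value of MRPL30 was 0.0017, of the opposite sign, and centred on length its SU-DHL-5 value of 0.39 was 0.30 and did not pass. No member went the other way, where 2.26% of genes did.

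**Figure D4:**
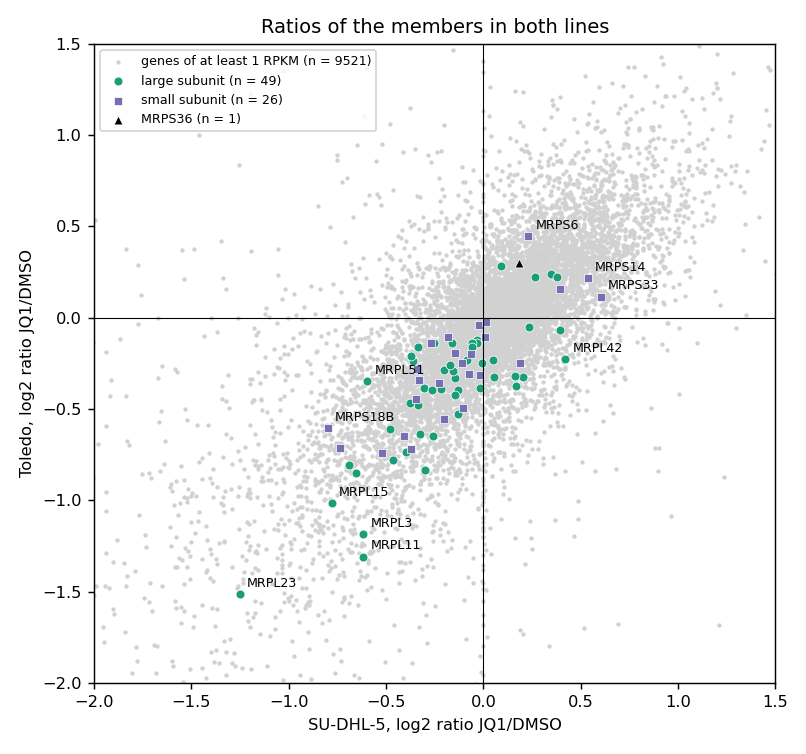
The log2 ratio of JQ1 to DMSO in Toledo (vertical axis) is plotted against that in SU-DHL-5 (horizontal axis), with members coloured by subunit over the 9521 genes of at least 1 RPKM in grey, and genes beyond the axis limits are not drawn. Most members lie at the lower left, inside the cloud of all genes, MRPL11 and MRPL3 lie lowest after MRPL23, at −1.31 and −1.18 in Toledo, and MRPL42 lies right of 0 and below it.

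Several members share bases with another gene, and the sources used here do not state whether strand was used in counting. Of the 76, 14 overlap another gene of at least 1 RPKM. MRPS6 overlaps SLC5A3, which was higher with JQ1 at log2 ratios of 0.54 and 0.63 but had a mean of 3.11 RPKM. MRPS25 overlaps NR2C2, at 0.35 and 0.46 and a mean of 3.54 RPKM. MRPS18B overlaps PPP1R10, which went the other way at 0.58 and 0.47. MRPL19 overlaps GCFC2, MRPL32 overlaps PSMA2, and MRPL49 overlaps FAU, whose mean of 1812 RPKM was far above that of any member. The part of these neighbours in the members' values was not tested. No pseudogene of a member had a value in the table.

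Members also had close divergent neighbours more often than other genes. A gene on the other strand starting within 1000 bases was found for 16 of 76 members, or 21.1%, against 11.0% of 9062 protein-coding genes of at least 1 RPKM, a comparison added after the data had been seen. MRPL46 and MRPS11 form such a pair, with starts 34 bases apart. MRPL46 had log2 ratios of −0.13 and −0.53, and MRPS11 −0.02 and −0.04. MRPS18C starts 76 bases from HELQ, a DNA helicase gene, and MRPS18C was lower in both lines whereas HELQ had log2 ratios of 0.44 and 0.36. MRPL47 starts 36 bases from NDUFB5, a subunit of respiratory complex I, which had 0.39 and 0.05 beside −0.20 and −0.29 for MRPL47. These pairs were named after their values were seen. For 12 of the 16 members the partner had at least 1 RPKM, with MRPL46 and MRPS11 counted both ways. The log2 ratios of member and partner shared a sign for 9 of these 12 in each line. Toledo had 8 of the 12 partners and 67 of all 76 members with a negative log2 ratio, where SU-DHL-5 had 6 and 56. The number of shared signs to be met from these shares alone was not worked out, so whether pairs moved together was not tested.

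The transcript table listed 174 transcripts of the members, and 33 members had 1. At least 2 transcripts with 100 reads in both lines were found for 24 members. None of these had 1 transcript called lower and another called higher in both lines. Other differences between transcripts did occur. In Toledo MRPL4_1 had −0.63 and MRPL4_2 0.48, past the rule in opposite directions, whereas in SU-DHL-5 cells they had −0.02 and −0.56. MRPL13_2 had log2 ratios of −2.80 and −1.65 where MRPL13_1 had 0.06 and −0.31. MRPL55_4 had log2 ratios of −0.18 and −0.61 where MRPL55_11 had 0.16 and 0.28, and MRPS34_3 had −0.24 and −0.39 where MRPS34_2 had 0.12 and 0.20. In none did the share of a transcript move by more than 5 percentage points the same way in both lines, beyond the gap between libraries.

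The members' pattern was set beside other genes of the ribosomes and of mitochondria, listed by symbol. The 83 cytosolic ribosomal protein genes had median log2 ratios of −0.01 in SU-DHL-5 cells and 0.15 in Toledo, and 0 and 1 of them were lower. The 76 nuclear genes of oxidative phosphorylation of at least 1 RPKM had medians of 0.04 and −0.08, with 8 and 18 lower (10.5% and 23.7%, beside 22.2% and 29.2% of all genes). Both lists hold short genes, with median lengths of 887 and 1092 bases. The members' medians thus lay below those of either list in both lines, and the difference was not tested.

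Around the ribosome itself, 7 further mitoribosomal proteins with other symbols had medians of −0.07 and −0.29, and 1 and 2 were lower (14.3% and 28.6%). GADD45GIP1, a large subunit protein also known as CRIF1, gave 182 and 181 RPKM with DMSO and 141 and 147 with JQ1 in SU-DHL-5 cells, and 159.9 and 139.8 RPKM with DMSO and 97.7 and 105 with JQ1 in Toledo. Of 27 genes for assembly of the ribosome and modification of its RNA, 5 (18.5%) were lower in SU-DHL-5 cells and 6 (22.2%) in Toledo, below the 22.2% and 29.2% of all genes, and 2 and 3 were higher. WBSCR16, needed for the large subunit, ranked first among the decreases of that list in both lines together, with log2 ratios of −0.68 and −1.24, while MTG1, an assembly GTPase, had 0.49 and 0.33. Of 15 translation factors, 3 and 4 were lower (20% and 26.7%) and 1 was higher in each line. TACO1, a translational activator of cytochrome c oxidase subunit I, had −0.55 and −1.11, and MTFMT, which formylates the initiator tRNA, had 0.74 and 0.65. Of 17 aminoacyl-tRNA synthetases, 1 and 4 were lower (5.88% and 23.5%), with YARS2 at −0.59 and −0.71. Of 11 genes for transcription and replication of mitochondrial DNA, 2 (18.2%) were lower in each line, and POLG, the catalytic subunit of the DNA polymerase, was higher at 0.84 and 0.93. Each of these shares was below that of all genes in the same line. None of these 5 lists had a median as low as the members' −0.15 and −0.31.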

How the data were processed

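RNA of 4 samples was sequenced in 8 libraries. The authors deposited RPKM values per gene (41507 genes) and per transcript (67765 transcripts), scaled to feature length and to the mapped reads of each library. The submitters' processing notes name CASAVA 2.0 and the build GRCh38 (hg38). The aligner, the counting and its use of strand, and the annotation are not given in the sources used here. Groups came from the labels, which state 6 h of treatment. The study's text gives another time.

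The members, gene lists and comparisons were chosen with earlier results of these data known. The lists of cytosolic ribosomal proteins and oxidative phosphorylation genes were taken by symbol pattern during the work, as were the searches for motifs and divergent neighbours. Start codons were those of GENCODE v29. The 2 libraries of a sample were averaged. Ratios are log2((JQ1 + 0.1)/(DMSO + 0.1)), and no model or test was fitted, since n = 1 per condition. Mapped reads were recovered from 313 genes of a single exon, and feature lengths as those that gave whole reads, within 0.002 reads, in all libraries. This succeeded for 14942 of 14944 genes and for all 76 members. On simulated reads, 85.3% of the lengths of the 14524 genes that drew reads were recovered, after a looser tolerance had recovered fewer.

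Named members were the 8 that decreased and the 6 that increased most in both lines, ranked by the smaller of the 2 log2 ratios, the 4 with the largest difference between lines, the 4 highest and the 3 lowest levels, and MRPL12, MRPS12, MRPS18A, MRPS30 and MRPS36. All of them had 100 reads or more in each line in the deeper library. Of each list of other mitochondrial genes, the 2 that decreased and the 2 that increased most were drawn on. Promoter sequences were from RefSeq (GRCh38.p14), and 67 of 76 members had an entry. MRPL2, MRPL10, MRPL13, MRPL15, MRPL21, MRPL23, MRPL35, MRPS28 and MRPS36 had none. Alternatives varied the pseudocount, the cutoff, the filter, the scaling, the library, the table and a centring on gene length. For that last, each gene was set against the running median of 501 genes of similar length. The work was done in Python (3.11.15) with pandas (2.3.3) and numpy (2.4.6), intervals with scipy (1.17.1) and plots with matplotlib (3.10.9).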

Additional observations from a re-analysis of the deposited data

Results flagged for a closer look

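For 7 of the 76 members (9.21%) the JQ1 libraries of SU-DHL-5 both lay above its DMSO libraries, whereas those of Toledo both lay below. The same held for 4.79% of all genes, and 63.2% of all genes had the more negative log2 ratio in Toledo. The difference of the log2 ratios, Toledo minus SU-DHL-5, was −0.65 for MRPL42, −0.54 for MRPL50, −0.53 for MRPL1, −0.48 for MRPL32, −0.46 for MRPL30, −0.43 for MRPS10 and −0.28 for MRPL49. With 1 sample per condition, none of these differences between the lines was tested. MRPL32 and MRPL49 each overlap another gene of at least 1 RPKM, PSMA2 and FAU, and the part of these in the values was not tested. The counting interval included 0 for MRPL30 in Toledo and for MRPL49 in SU-DHL-5.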

How the results depend on the processing

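No paired analysis was possible because there was a single sample of every kind and nothing was fitted. No median reversed under the alternatives run. Among named members 1 ratio changed sign, that of MRPL30 in Toledo, from −0.07 with an interval that included 0 to 0.0017 when scaled. Centred on gene length, the median log2 ratio of the members was −0.10 for SU-DHL-5 and −0.23 for Toledo, the SU-DHL-5 count below 0.8 fell from 24 to 14, and the median of Toledo to SU-DHL-5 with DMSO was −0.23 where it had been −0.30. That last median was −0.23 with the first libraries alone as well. The cause was not tested. Scaling by the median ratio of all genes (1.01 for SU-DHL-5, 0.954 for Toledo) moved the Toledo median to −0.24. A cutoff of 0.67 left 9 members lower in SU-DHL-5, 17 in Toledo and 8 in both, and a cutoff of 0.9 gave 38, 55 and 34. The shares of all genes at these cutoffs are not given here, so these counts cannot be set against a background. With 1 library of each sample the counts below 0.8 were 27 and 19 (SU-DHL-5), 41 and 28 (Toledo), and 24 and 15 (both). Of 336 ratios of the 24 named members under alternatives, 62 lay outside the counting interval of the reported value, 21 of them when centred on length and 18 and 17 with the first or second library alone. Each member had at least 197 reads in every library. Counting error still left some calls open, as the interval of MRPL50 in Toledo, −0.56 to −0.20, spanned the cutoff of 0.8. The absence of replicate samples was a further limit.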
